A study of Mus musculus with 23 samples.

Results

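The TGF-beta pathway of microglia was followed through 10 genes chosen by symbol: Tgfb1, Nrros, Itgav, Tgfbr1, Tgfbr2, Smad2, Smad3, Smad4, Smad7 and Ski. All 10 were found among the 53090 genes of the deposited tables, and all 10 passed the filter on low counts that left 18720 genes for testing. The samples were microglia, the macrophages that live in brain tissue, from female C57BL/6 mice. There were 7 young libraries (Y), 3 young repopulated (Y-re), 5 old (O) and 8 old repopulated (O-re). Microglia need signals through the receptor CSF1R to survive. In the repopulated groups they had been depleted with PLX5622, an inhibitor of that receptor, given at 1200 ppm in AIN-76A chow, and the brain was then refilled by new microglia. Treatment controls were fed the same chow without drug. The sources used here do not give the mice's ages, how long the drug was fed or how long the cells had to return. The labels carry 1 protocol for CD11b magnetic selection followed by culture, and another that takes RNA from microglia sorted by flow cytometry. CD11b is present on other myeloid cells too, so the cells of a library need not all be microglia. The labels do not say how many mice gave a library, and p-values therefore measure only the spread between these samples, which may be partly technical.

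TGF-beta1 is secreted by microglia in a latent form, held inactive by its own propeptide. The protein LRRC33, encoded by Nrros, tethers the latent form to the microglial surface, and integrins that contain the alphaV subunit, encoded by Itgav, free the active cytokine. The active cytokine binds TGFBR2, which phosphorylates TGFBR1. The receptor then phosphorylates SMAD2 and SMAD3, which enter the nucleus with SMAD4, while SMAD7 blocks the receptor and SKI represses SMAD target genes. In the brain this signal is known for keeping microglia in their homeostatic state, and its loss is known to raise genes such as Apoe, Axl and Clec7a.

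Total counts ranged from 43.66 to 58.19 M per library, and the lowest count of any member in any library was 1788, for Smad2. The 9 microglial markers checked were detected in all groups, but their summed level differed among libraries. The sum was 23750 to 29080 counts per M (CPM) in young, 21360 to 24730 in young repopulated, 9691 to 24060 in old and 8945 to 27350 in old repopulated libraries. The sum of 10 monocyte and neutrophil markers ran the other way, from 31.6 to 282 CPM in young, 122 to 362 in young repopulated, 236 to 2105 in old and 142 to 2833 in old repopulated libraries. Old replicate 3 and old repopulated replicate 6 held the highest monocyte and neutrophil sums. The sum of 7 markers of border-associated macrophages, which line the meninges and vessels, was 47.1 to 150 CPM in young, 218 to 306 in young repopulated, 144 to 470 in old and 51.6 to 637 in old repopulated libraries. The sum of 8 astrocyte markers was 85.5 to 180 CPM in young, 78.7 to 108 in young repopulated, 62.1 to 128 in old and 20.95 to 107 in old repopulated libraries. For 7 markers of the oligodendrocyte lineage it was 90.4 to 160, 138 to 157, 102 to 157 and 107 to 214 CPM in the same order, with Mog at 0 in all young repopulated and all old libraries and Pdgfra at 0 in all young repopulated ones. The part of these cells in the results was not tested. Platelet, lymphocyte and neuron marker sums stayed at or below 18.8 CPM in every library. The sample titles also number the libraries from 1 to 24. Among numbers 1 to 11 were 5 libraries of old repopulated, 3 of young and 2 of old mice. Among numbers 12 to 24 were 4 of young mice and 3 of each other group, so that young repopulated mice are found only there. The labels do not say what the number stands for. In bulk RNA, fewer cells of a type and less RNA per cell cannot be told apart.

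The receptor genes Tgfbr1 and Tgfbr2 and the integrin gene Itgav had the largest fitted changes of the 10 in old against young, and the 250 bases before their RefSeq start sites are shown here for that reason (RefSeq, build GRCm38.p6, 5′ to 3′ on the gene's own strand). Capitals mark GAGGAAG or its reverse complement CTTCCTC, the letters searched as a core of the motif of PU.1, a transcription factor that defines myeloid cells. The letters CAGACA, which hold the SMAD-binding sequence, and their reverse complement were searched too.
Tgfbr1, chr4:47352972-47353221, plus strand: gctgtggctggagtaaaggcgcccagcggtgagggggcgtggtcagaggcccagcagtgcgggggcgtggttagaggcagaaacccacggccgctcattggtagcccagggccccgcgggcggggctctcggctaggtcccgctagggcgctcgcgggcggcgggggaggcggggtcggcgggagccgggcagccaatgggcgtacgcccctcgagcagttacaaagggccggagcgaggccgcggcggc
Tgfbr2, chr9:116175364-116175613, minus strand: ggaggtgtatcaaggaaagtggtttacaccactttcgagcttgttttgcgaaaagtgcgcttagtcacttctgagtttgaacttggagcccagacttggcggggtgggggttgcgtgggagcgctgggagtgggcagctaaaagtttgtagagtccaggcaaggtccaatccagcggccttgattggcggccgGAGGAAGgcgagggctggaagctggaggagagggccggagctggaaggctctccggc
Itgav, chr2:83724147-83724396, plus strand: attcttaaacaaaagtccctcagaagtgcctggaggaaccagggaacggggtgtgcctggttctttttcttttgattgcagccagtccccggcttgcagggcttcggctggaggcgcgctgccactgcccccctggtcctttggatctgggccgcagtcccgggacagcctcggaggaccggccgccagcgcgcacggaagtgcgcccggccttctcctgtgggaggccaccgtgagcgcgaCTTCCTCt

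The window of Tgfbr2 held GAGGAAG with its first letter 57 bases before the start. The window of Itgav held CTTCCTC with its first letter 8 bases before the start, and the window of the first Tgfbr1 start shown above held neither motif. RefSeq lists a second Tgfbr1 start, whose window held GAGGAAG 95 bases and CAGACA 203 bases before it. Neither motif was found in the windows of Tgfb1, Smad3, Ski and Nrros. Over all 32851 mouse promoter windows of 300 bases (250 before to 50 after the start), 13.63% held GAGGAAG and 21.04% held CAGACA on either strand, where both motifs can share no more than an end letter. In GENCODE M21 on GRCm38 the whole genes lie at chr4:47353222-47414931 for Tgfbr1, chr9:116084293-116175360 for Tgfbr2, chr2:83724397-83806916 for Itgav, chr7:25687002-25705077 for Tgfb1, chr9:63646767-63757994 for Smad3 and chr4:155154075-155222592 for Ski. Smad4 and Smad7 lie on chromosome 18.

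Levels of different genes were compared as transcripts per M (TPM), which divides by transcript length. The receptor Tgfbr1 had the highest level, 321 ± 91.9 TPM (SD over all 23 libraries), and lay at percentile 97.6 of the genes tested. The ligand Tgfb1 followed at 255 ± 34.2 TPM and the receptor Tgfbr2 at 174 ± 39.9 TPM. The repressor Ski and the tether Nrros stood next to each other at 135 ± 16.6 and 125 ± 19.5 TPM, closer than their SD. Itgav came at 77.3 ± 23.01 TPM and Smad7 at 49.3 ± 18.3 TPM. The signal carriers were lowest and lay close together, at 35.2 ± 3.75 TPM for Smad2, 29.0 ± 3.59 TPM for Smad4 and 27.8 ± 6.91 TPM for Smad3, the last at percentile 74.3. All 10 members were therefore in the upper part of the range of expressed genes, and the spread over libraries was widest, relative to the mean, for Smad7, Itgav and Tgfbr1.

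**Figure D1:**
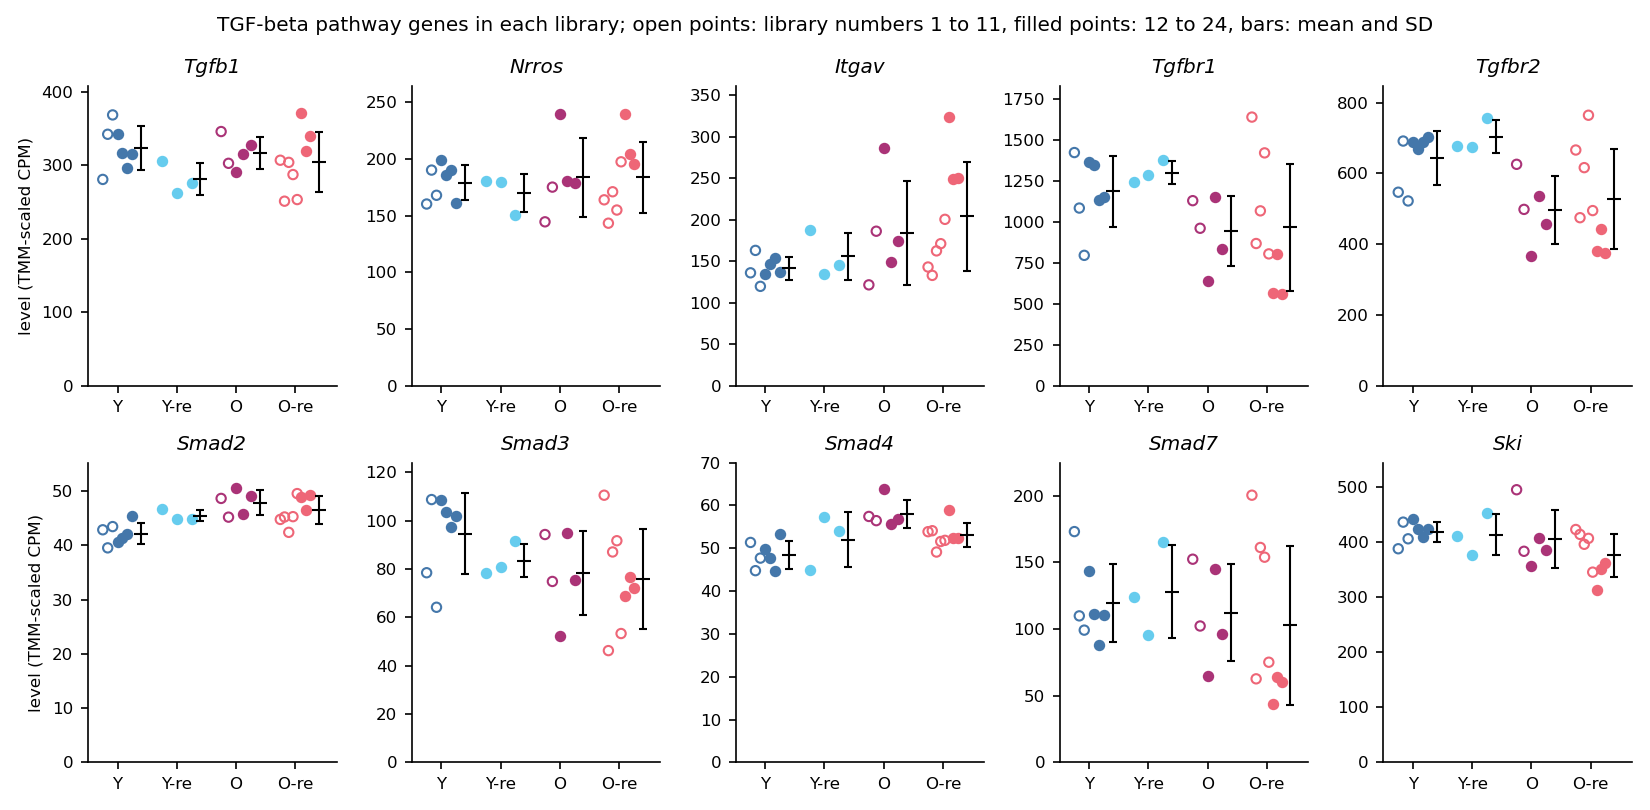
Level of each of the 10 pathway genes in every library, in TMM-scaled CPM on a linear axis from 0, by group: young (Y), young repopulated (Y-re), old (O) and old repopulated (O-re). Points are libraries, open for numbers 1 to 11 and filled for 12 to 24, and bars give the mean and SD. The filled O-re points of Tgfbr1, Tgfbr2 and Smad7 are low and those of Itgav high, while all 5 old Smad4 points lie above all 7 young ones.

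From here levels are TMM-scaled CPM and differences are log2 fold changes with their standard error (SE), tested with edgeR's quasi-likelihood test on all 18720 genes with Benjamini-Hochberg adjustment. A gene was called at an adjusted p under 0.05. The comparisons share samples. Young libraries serve 3 of the pairwise comparisons and old repopulated libraries 3, and the interaction described below uses every group. The values of the comparisons are therefore given side by side and are not independent of each other.

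The ligand and the proteins that hold and release it were examined first. Tgfb1 was measured at 281 (lowest), 316 (median) and 369 (highest) CPM in young libraries and at 251, 306 and 372 CPM in old repopulated ones. The 3 young repopulated libraries had 306, 263 and 276 CPM and the 5 old libraries 346, 303, 290, 315 and 327 CPM. These ranges overlap throughout. The difference between old and young was -0.03 ± 0.09 (SE, adjusted p 0.928). Young repopulated libraries differed from young ones by -0.20 ± 0.11 (adjusted p 0.42), the largest fitted change of Tgfb1 in these comparisons.

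Nrros, the tether of latent TGF-beta1, had group means close to each other, with a wider spread among old and old repopulated libraries. Old libraries averaged 184 ± 34.5 CPM (SD, n = 5) and old repopulated ones 184 ± 31.4 CPM (SD, n = 8), beside 179 ± 15.8 CPM for young (SD, n = 7) and 170 ± 16.9 CPM for young repopulated ones (SD, n = 3). Its highest values, 239.7 and 239.9 CPM, were in old replicate 3 and old repopulated replicate 6, the libraries with the most monocyte and neutrophil marker RNA, and that part of the values was not tested. Old and young differed by 0.04 ± 0.12 (SE, adjusted p 0.936), and the sign turned with upper-quartile factors (-0.02).

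Itgav, the alphaV subunit that releases the cytokine, was higher in old repopulated than in young libraries. Young libraries had 120 (lowest), 137 (median) and 163 (highest) CPM. The 8 old repopulated libraries had 143, 133, 163, 171, 201, 324, 248.6 and 250 CPM, and 5 of them lay above every young library, although the groups overlapped. The 5 old libraries had 122, 186, 287, 150 and 175 CPM, and 3 of them exceeded every young library. The difference between old repopulated and young was 0.53 ± 0.18 (SE, adjusted p 0.04998), and Itgav was the only member called there. In that comparison 15.2% of all genes were called (1739 higher, 1108 lower), so that 1 call of 10 members lies under the background. DESeq2 called 2 members there, where it called 19.7% of all genes, and voom with sample quality weights 6, where it called 35.5%. The call held in 7 of the 23 fits that left out 1 library. It was lost without any of the 7 young libraries, young repopulated replicates 1 or 3, old replicates 2, 4 or 5, or old repopulated replicates 5, 6, 7 or 8, with adjusted p up to 0.123 and a change of 0.40 without old repopulated replicate 6. For old against young the change was 0.38 ± 0.20 (SE, adjusted p 0.389) and for young repopulated against young 0.14 ± 0.24 (adjusted p 0.851).

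The receptors were lower on average in both old groups, without a call in the fit of all libraries. Tgfbr2, which binds the ligand, had 522 (lowest), 688 (median) and 704 (highest) CPM in young libraries. Old libraries had 626, 499, 368, 537 and 457 CPM, and 3 of the 5 lay below every young library. Old repopulated libraries had 666, 475, 617, 765, 495, 381, 443 and 374 CPM, and 5 of the 8 lay below every young library while 1 lay above. The 3 young repopulated libraries, at 678, 676 and 758 CPM, lay inside the young range or, for the third, above it. The change was -0.375 ± 0.16 in old against young (SE, adjusted p 0.257) and -0.29 ± 0.14 in old repopulated against young (adjusted p 0.169). The latter was called when old repopulated replicate 4, the library with the highest Tgfbr2 level, was left out (-0.39, adjusted p 0.0454).

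Tgfbr1, the signalling receptor, had 795 (lowest), 1152 (median) and 1421 (highest) CPM in young libraries. The 3 young repopulated libraries, at 1239, 1286 and 1373 CPM, lay in the upper part of the young range. Old libraries had 1128, 960, 640, 1149 and 834 CPM. Old repopulated libraries spread widest, with 1637, 867, 1066, 1419, 804, 566, 803 and 557 CPM, and held both the highest and the lowest value of all 23 libraries. The change was -0.33 ± 0.23 (SE, adjusted p 0.539) in old against young and -0.30 ± 0.20 (adjusted p 0.338) in old repopulated against young. In the libraries with the lowest Tgfbr1 and Tgfbr2 levels (old replicate 3 and old repopulated replicates 6 and 8) the summed microglial markers were also lowest, at 9691, 9812 and 8945 CPM, and that part in the result was not tested.

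Among the signal carriers, Smad4 was the member called in old against young. SMAD4 is the common partner that SMAD2 and SMAD3 need to act on genes. Young libraries had 44.7 (lowest), 47.8 (median) and 53.4 (highest) CPM. The 5 old libraries had 57.4, 56.5, 63.9, 55.6 and 56.8 CPM, all above every young library. The change was 0.26 ± 0.07 (SE, adjusted p 0.0422). Over all genes 2.83% were called in this comparison, and 2.21% had groups that did not overlap. The old repopulated libraries had 53.9, 54.1, 49.1, 51.6, 51.9, 58.9, 52.5 and 52.5 CPM, of which 7 lay below every old library and 3 above every young one. Young repopulated libraries had 44.9, 57.2 and 54.0 CPM, within or above the young range. Old repopulated and old libraries differed by -0.13 ± 0.07 (SE, adjusted p 0.53), and the order of the means was young, young repopulated, old repopulated, old. The neighbours young, young repopulated and old repopulated were closer to each other than 1 SD of the young repopulated group. The Smad4 call held in 14 of the 23 fits that left out 1 library. It was lost without young replicates 2 to 6, young repopulated replicate 3, old replicates 3 or 5, or old repopulated replicate 5, and the weakest of these was without old replicate 3 (0.22, adjusted p 0.208).

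Smad2 had 39.5 (lowest), 42.0 (median) and 45.3 (highest) CPM in young libraries and 48.6, 45.2, 50.6, 45.7 and 49.1 CPM in old libraries, 4 of which exceeded every young one. Its change was 0.18 ± 0.06 (SE, adjusted p 0.095) in old against young and 0.14 ± 0.05 (adjusted p 0.0639) in old repopulated against young. The latter was called without young repopulated replicate 2 (adjusted p 0.0486), old replicates 1 or 2 (0.0424 and 0.0423) or old repopulated replicates 1 or 3 (0.0221 and 0.0379). Smad3, the other carrier, averaged 75.9 ± 20.8 CPM in old repopulated (SD, n = 8) and 78.4 ± 17.5 CPM in old libraries (SD, n = 5). The young repopulated mean was 83.6 ± 6.97 CPM (SD, n = 3) and the young mean 94.7 ± 16.95 CPM (SD, n = 7). Old and young differed by -0.27 ± 0.185 (SE, adjusted p 0.524), so that Smad2 and Smad3 had opposite signs and neither was called by edgeR with all libraries. DESeq2 called Smad2 there (adjusted p 0.0235), and voom called both, Smad2 with adjusted p 0.0239 and Smad3 with 0.0489.

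The inhibitors came last. Smad7, which SMAD signalling itself induces and which then blocks the receptor, had 87.8 (lowest), 110.2 (median) and 173 (highest) CPM in young libraries. Old repopulated libraries had 200, 62.7, 161, 154, 75.1, 43.9, 64.1 and 60.2 CPM, so that 5 of the 8 lay below every young library and 1 above. The 5 old libraries had 152, 102, 64.8, 145 and 96.2 CPM. The change in old repopulated against young was -0.22 ± 0.28 (SE, adjusted p 0.653). The old repopulated library with the highest Smad7 level also had the most RNA of immediate early genes, which respond to stimulation within minutes: the summed level of 9 such genes was 15220 CPM in old repopulated replicate 1 and 5664 to 6351 CPM in replicates 2, 6, 7 and 8 of that group, and its part in the result was not tested. Replicate 5, also below every young library in Smad7, had a sum of 7452 CPM, inside the young range of 7422 to 11040 CPM. Ski, the nuclear repressor, averaged 377 ± 39.2 CPM in old repopulated (SD, n = 8) and 406 ± 53.1 CPM in old libraries (SD, n = 5), against a young mean of 419 ± 18.7 CPM (SD, n = 7) and a young repopulated mean of 414 ± 37.5 CPM (SD, n = 3). Of the old repopulated libraries 4 lay below every young one, and the change was -0.15 ± 0.08 (SE, adjusted p 0.186).

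Comparing repopulated with other libraries of the same age gave no call among the members. Drug feeding and renewal of the cells go together in these comparisons and cannot be told apart. In old repopulated against old, where 0.278% of all genes were called, 0 of 10 members were called by edgeR, by DESeq2 (background 1.66%) or by limma's voom with sample quality weights (background 2.21%), and 0, 1 and 0 members had an unadjusted p under 0.05. Of all 18720 genes, 1941, 2040 and 3485 had such a p by the same tools. The 10 fitted changes lay between -0.13 and 0.15. In young repopulated against young, with 1.34% of all genes called, 0 members were called by edgeR, by DESeq2 (background 4.35%) or by voom (background 13.8%), and 0, 0 and 2 had an unadjusted p under 0.05. Over all 18720 genes these unadjusted counts were 2832, 3170 and 5283. The changes ran from -0.20 for Tgfb1 to 0.14 for Itgav. Old repopulated against young repopulated gave 0 calls of 10 by edgeR (1 at an unadjusted p under 0.05) and by DESeq2 (1), on backgrounds of 0% and 0.433% of all genes, and 4 calls by voom with sample quality weights, on a background of 17%. The unadjusted counts over all 18720 genes were 2183 by edgeR and 2527 by DESeq2. The interaction subtracts the change with repopulation in young mice from that in old mice. It was called for 0 members by each tool, on backgrounds of 0% for edgeR, 0.235% for DESeq2 and 0.807% for voom. Smad4 was the 1 member with an unadjusted p under 0.05 in edgeR (-0.23 ± 0.10 SE, adjusted p 0.578), since it was 0.10 ± 0.08 (SE) higher with repopulation in young mice and 0.13 lower in old mice. For the interaction 1542 of all 18720 genes had an unadjusted p under 0.05 in edgeR. In old against young DESeq2 called 2 members, on a background of 5.19%, and voom with sample quality weights 4, on a background of 12.6%.

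**Figure D2:**
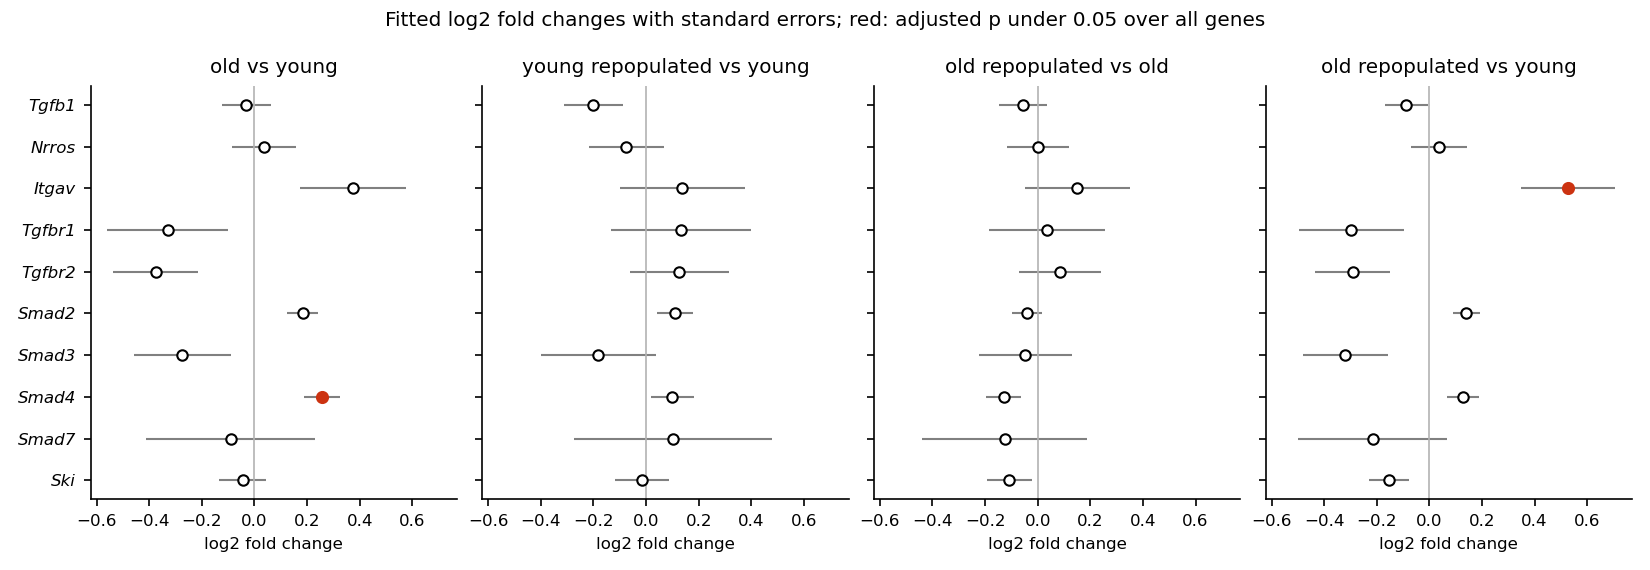
Fitted log2 fold changes of the 10 members in 4 comparisons, with bars of 1 standard error. Red points have an adjusted p under 0.05 over all genes: Smad4 in old vs young (0.26) and Itgav in old repopulated vs young (0.53). In old repopulated vs old every point lies between -0.13 and 0.15.

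The number of members called depended on the run of library numbers fitted, and the test of a difference between the runs is given below. Within numbers 12 to 24 (4 young, 3 old repopulated), 7 of the 10 members were called in old repopulated against young, on a background of 41.1% of all genes. Tgfbr2 was 688 ± 14.2 CPM in young (SD, n = 4) and 400 ± 37.7 CPM in old repopulated libraries (SD, n = 3), and changed by -0.77 ± 0.12 (SE, adjusted p 0.000375). Tgfbr1 was 1248 ± 124 and 642 ± 139 CPM in the same groups, a change of -0.95 ± 0.19 (adjusted p 0.00167). TGFBR1 and TGFBR2 act as a complex, and both genes were lower in these old repopulated libraries. The summed microglial markers were lower there too, at 8945 to 13290 CPM against 27010 to 29080 CPM in the young libraries, and that part was not tested. Smad7 fell from 113 ± 22.9 to 56.1 ± 10.7 CPM (-1.005 ± 0.27, adjusted p 0.0102), and Itgav rose from 143 ± 8.43 to 274 ± 43.2 CPM (0.95 ± 0.19, adjusted p 0.0017). Smaller calls were those of Smad3 (-0.49, adjusted p 0.0221), Ski (-0.30, adjusted p 0.0125) and Smad2 (0.20, adjusted p 0.0248). Tgfb1 (0.12), Smad4 (0.17) and Nrros (0.22) were not called.

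Within numbers 1 to 11 (3 young, 5 old repopulated) 0 members were called, with 0.0107% of all genes called. Tgfbr1 was 1100 ± 313 CPM in young (SD, n = 3) and 1159 ± 359 CPM in old repopulated libraries (SD, n = 5), with a fitted change of 0.08 ± 0.26 (SE). Tgfbr2 was 587 ± 91.4 and 604 ± 121 CPM (0.05 ± 0.18), and Smad7 127 ± 39.9 and 131 ± 59.3 CPM (0.04 ± 0.36). Both receptors and Smad7 therefore had opposite signs in the runs, while Itgav was positive in both (0.22 ± 0.18 in numbers 1 to 11). The difference between the runs was itself tested for this comparison, and 1.39% of all genes but 0 members were called. Tgfbr2 came closest, at -0.82 ± 0.22 (SE, adjusted p 0.0575), followed by Tgfbr1 at -1.03 ± 0.33 (adjusted p 0.093) and Itgav at 0.72 ± 0.27 (adjusted p 0.136). The monocyte and neutrophil sum of the old repopulated libraries was 142 to 1279 CPM in numbers 1 to 11 and 786 to 2833 CPM in numbers 12 to 24, and its part was not tested. The microglial sum of the same libraries was 14160 to 27350 CPM in numbers 1 to 11 and 8945 to 13290 CPM in numbers 12 to 24. Its part was not tested either.

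In old against young, numbers 12 to 24 (4 young, 3 old) gave calls for Tgfbr2 (-0.59 ± 0.12 SE, adjusted p 0.00582) and Smad2 (0.20 ± 0.06, adjusted p 0.0468), on a background of 15.7%. Smad4 kept its size there (0.27) without a call (adjusted p 0.0747). Numbers 1 to 11 (3 young, 2 old) gave 0 calls, on a background of 0.00533%, and Smad2 was 0.16 ± 0.13 (SE). In old repopulated against young repopulated, which only numbers 12 to 24 allow (3 and 3 libraries), 6 members were called on a background of 36.3%. Tgfbr1 (-1.04), Tgfbr2 (-0.84), Smad7 (-1.21) and Ski (-0.30) were lower in old repopulated libraries, and Itgav (0.79) and Tgfb1 (0.27) were higher, with adjusted p from 0.000754 to 0.0361. Old repopulated against old gave 0 calls of 10 within numbers 12 to 24, on a background of 12.7%, although Smad7 stood at -0.87 ± 0.29 (SE, adjusted p 0.0634). Young repopulated against young also gave 0 calls there, on a background of 9.3%, and the interaction 0, on a background of 8.87%. Within numbers 1 to 11 old repopulated against old gave 0 calls, on a background of 0%.

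**Figure D3:**
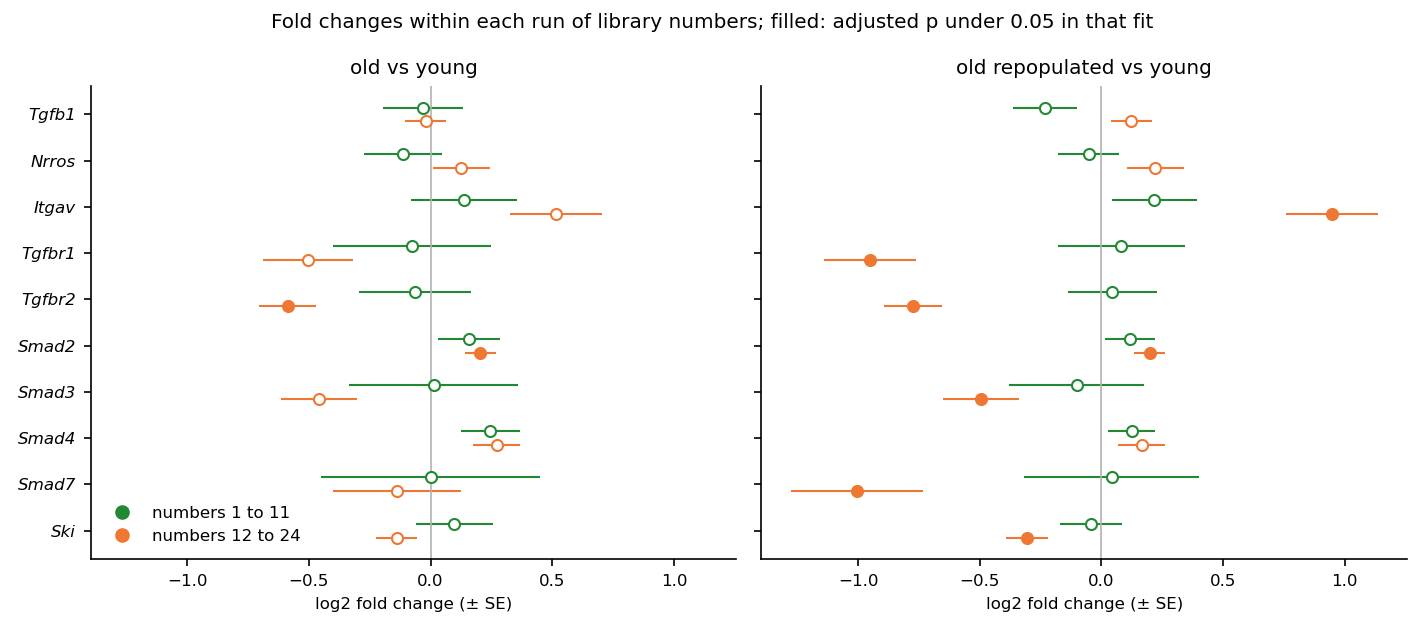
Log2 fold changes (± SE) of the members fitted within library numbers 1 to 11 (green) and within 12 to 24 (orange), for old vs young and old repopulated vs young. Filled points have an adjusted p under 0.05 in their own fit. In the right panel the orange points of Tgfbr1, Tgfbr2 and Smad7 lie between -0.77 and -1.005, while the green ones lie between 0.04 and 0.08.

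A fit that left out the library with the highest monocyte and neutrophil sum of each group was added after the data were seen. It left out young replicate 3 (282 CPM), young repopulated replicate 2 (362 CPM), old replicate 3 (2105 CPM) and old repopulated replicate 6 (2833 CPM). In that fit 0 members were called in each comparison. The background was 1.2% of all genes in old against young, 11.6% in old repopulated against young, 0.154% in old repopulated against old and 0.456% in young repopulated against young. For old repopulated against young repopulated and for the interaction it was 0%. Smad4 stood at 0.22 (adjusted p 0.181) in old against young and Itgav at 0.36 (adjusted p 0.109) in old repopulated against young. Tgfbr2 was -0.33 (adjusted p 0.513) in old against young.

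Pairs of members were compared over the 23 libraries. Of the 45 pairs, 27 had a correlation of log2 CPM with a permutation p under 0.05 after adjustment over the 45, 13 positive and 14 negative, and 26 of these 27 had the same sign in both runs of numbers. The same share among other expressed genes was not computed, so that nothing particular to the members is read from this count. The receptors formed the closest pair: Tgfbr1 and Tgfbr2 had Pearson's r 0.89 (adjusted permutation p 0.00022) and Spearman's rho 0.78 (adjusted permutation p 0.00067). Without the 2 libraries farthest from the Tgfbr1 median r was 0.84, within numbers 1 to 11 it was 0.71 and within 12 to 24 it was 0.96. With group means removed r was 0.87. Tgfbr1 and Smad7 went together as closely, with r 0.87 and rho 0.82 (adjusted permutation p 0.00022 for r), 0.81 without the 2 farthest libraries, and 0.86 and 0.89 within the runs. The raw p of these relations, 1e-05, is the smallest that 100000 permutations can give.

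Itgav ran against the receptors and Ski. Ski and Itgav had r -0.80 and rho -0.64 (adjusted permutation p 0.00045 and 0.0068), with r -0.70 without the 2 farthest libraries and -0.65 and -0.86 within the runs. Nrros and Itgav had r 0.78 and rho 0.66 (adjusted permutation p 0.00045 and 0.0056). Their r was 0.59 without the 2 farthest libraries and 0.69 and 0.79 within the runs. Tgfbr1 and Itgav had r -0.72 over all libraries, but -0.09 within numbers 1 to 11 and -0.91 within 12 to 24, so that the relation did not hold within the lower numbers. The pair Tgfbr2 and Itgav was the exception in sign, at 0.03 within numbers 1 to 11 and -0.89 within 12 to 24. Smad2 and Smad4 had r 0.69 and rho 0.62 (adjusted permutation p 0.0011 and 0.0075), and 0.39 with group means removed. Tgfb1 had no adjusted p under 0.05 with any other member. The libraries differ in the marker sums given above, and the part of those sums in these relations was not tested.

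**Figure D4:**
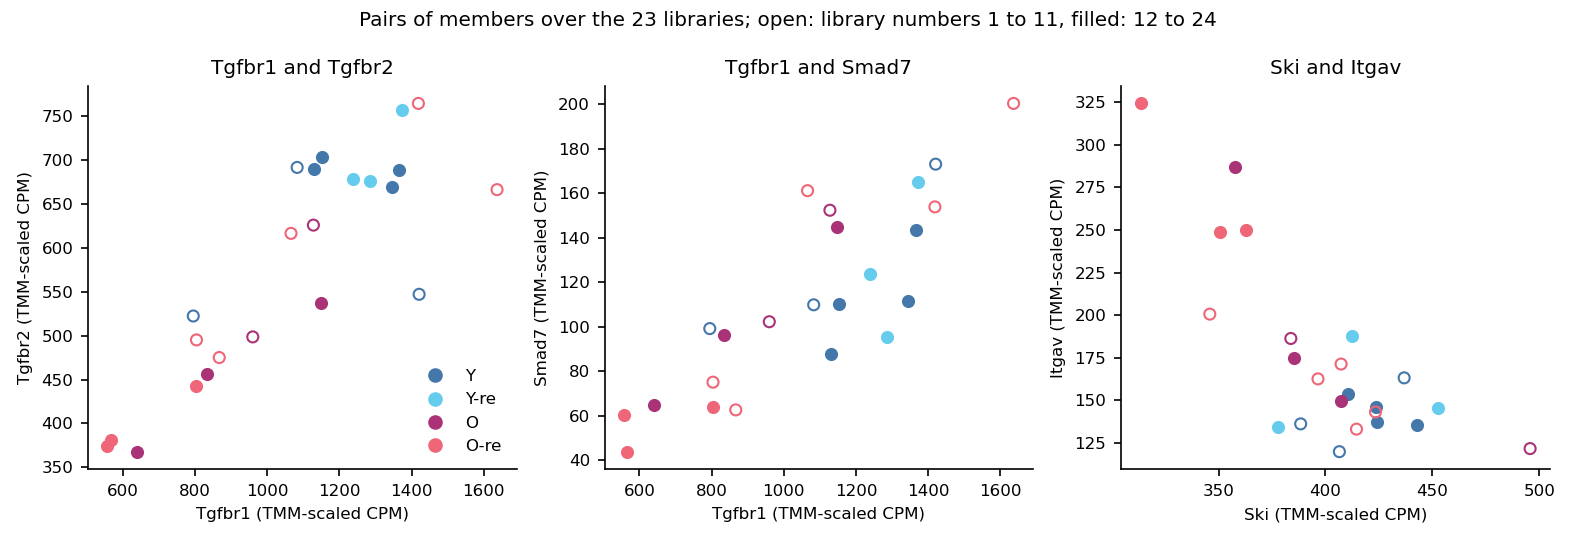
Levels of 3 pairs of members in the 23 libraries, in TMM-scaled CPM on linear axes, coloured by group, open for library numbers 1 to 11 and filled for 12 to 24. Tgfbr1 rises with Tgfbr2 (r 0.89 on log2 CPM) and with Smad7 (r 0.87), and Itgav falls as Ski rises (r -0.80).

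Over 9647 expressed genes, those whose log2 CPM went most closely with each member over the 23 libraries were listed as a description. For Tgfbr1 they were Rab6b (r 0.97) and Zscan26 (r 0.97), for Tgfbr2 Plxdc1 (r 0.95) and Dst (r 0.95), and for Itgav Osbpl8 (r 0.96) and Col4a3bp (r 0.93). Smad7 went most closely with Jun (r 0.95), an immediate early transcription factor gene, and with Abi3 (r 0.95). Smad3 had Rock2 (r 0.90) and Pdgfb (r 0.88), Smad2 Shoc2 (r 0.86) and Cyp4f16 (r 0.84), and Ski Zc3h4 (r 0.88) and Zkscan17 (r 0.88). The loosest were those of the other 3 members: Nrros had Hnrnph2 (r 0.83), Smad4 had Nsmce4a (r 0.77) and Tgfb1 had Stk40 (r 0.76).

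The rest of the pathway was read from 7 lists of genes by role. The lists were chosen with earlier results of these data known, so their counts beside those of all genes are a description. In the list of ligands and activation, 2 of 16 tested genes were called in old against young, both higher, beside 2.6% of all genes called higher, with a list median of 0.12 beside -0.01 for all genes. Thbs1, which encodes thrombospondin 1, a secreted protein that can activate latent TGF-beta, rose from a mean of 223 CPM in young to 3712 CPM in old and 3291 CPM in old repopulated libraries. Its change was 4.06 ± 0.87 (SE, adjusted p 0.0124) in old and 3.88 ± 0.83 (adjusted p 0.00388) in old repopulated against young. Thbs1 was highest in old replicate 3 (9199 CPM) and old repopulated replicate 6 (7995 CPM), the libraries with the highest monocyte and neutrophil sums, and within the young group in replicate 3 (902 CPM, against 86.9 to 163 CPM in the other 6). The part of those cells was not tested, and without old replicate 3 the change in old libraries was 3.39 (adjusted p 0.0676). Tgfb3, another ligand, rose from 0.42 to 7.67 CPM in old (4.17 ± 0.80 SE, adjusted p 0.00749) and to 5.16 CPM in old repopulated libraries (3.6 ± 0.75, adjusted p 0.0034), at levels far under those of Tgfb1. Itgb3, a partner subunit of alphaV, fell from 98.3 CPM in young to 45.0 CPM in old repopulated libraries (-1.13 ± 0.32 SE, adjusted p 0.02), in the opposite direction to Itgav.

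The 11 receptor genes had no call in old against young by edgeR (2 at an unadjusted p under 0.05) or DESeq2, and 3 by voom with sample quality weights. Of all 18720 genes, 2870 had an unadjusted p under 0.05 by edgeR, and voom called 12.6%. Of the 11, 9 were negative, with a median of -0.33. In old repopulated against young 10 of 11 were negative (median -0.295). Among the 11 only Eng, which encodes the co-receptor endoglin, was called, where 15.2% of all genes were called. It went from 76.7 CPM in young to 40.3 CPM in old repopulated libraries (-0.93 ± 0.25 SE, adjusted p 0.0161). Within library numbers 12 to 24, 7 of the 11 receptor genes were called lower and 1 higher in that comparison (median -0.59), beside 41.1% of all genes called in either direction, and within numbers 1 to 11 0 were called (median -0.01). Among the 7 SMAD genes tested, only Smad6, an inhibitor that acts mainly on the BMP branch, was called in old repopulated against young (0.68 ± 0.21 SE, adjusted p 0.0295), at 7.31 against 4.58 CPM. The background for this call was the same 15.2% of all genes. Smad6 lost its call without young replicates 1, 5, 6 or 7 or old repopulated replicates 6 or 8, with changes of 0.58 to 0.67.

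Of 19 regulators of SMAD signalling, 3 rose and 2 fell in old repopulated against young, beside 9.29% of all genes called higher and 5.92% lower. The rises were those of Bambi, a decoy receptor (4.10 to 10.3 CPM, 1.32 ± 0.29 SE, adjusted p 0.00451), Fkbp1a, whose product binds TGFBR1 (58.2 to 89.0 CPM, 0.61 ± 0.12, adjusted p 0.00282), and Nedd4l, a ubiquitin ligase (0.44 ± 0.11, adjusted p 0.00977). The falls were in the corepressors Tgif2 (33.3 to 10.98 CPM, -1.60 ± 0.29, adjusted p 0.00145) and Skil, a relative of Ski (707 to 545 CPM, -0.38 ± 0.09, adjusted p 0.0094). Tgif2 and Skil stood at 12.3 and 509 CPM in young repopulated libraries, and at 21.04 and 710 CPM in old libraries. Of 11 known direct target genes, 2 were called higher in old against young, beside 2.6% of all genes, while 5 were negative (median 0.005). In old repopulated against young 2 were called higher and 1, Skil, lower, while 7 of the 11 were negative (median -0.15). The genes called higher in both were Bhlhe40 and Tgfbi. Bhlhe40 rose from 25.9 CPM in young to 125 CPM in old and 150 CPM in old repopulated libraries. Tgfbi, an extracellular matrix gene, went from 169 to 1343 and 1330 CPM. Their changes were 2.27 ± 0.48 (SE, adjusted p 0.011) and 2.99 ± 0.64 (adjusted p 0.0121) in old against young, and both were lost without old replicate 3 (1.76 with adjusted p 0.0807, and 2.19 with 0.101). Klf10, a target named for its early induction by TGF-beta, fell in young repopulated libraries, from 68.1 to 30.6 CPM (-1.16 ± 0.20 SE, adjusted p 0.00455), and this call was lost without young repopulated replicates 1 or 2 (adjusted p 0.0514 and 0.0564).

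**Figure D5:**
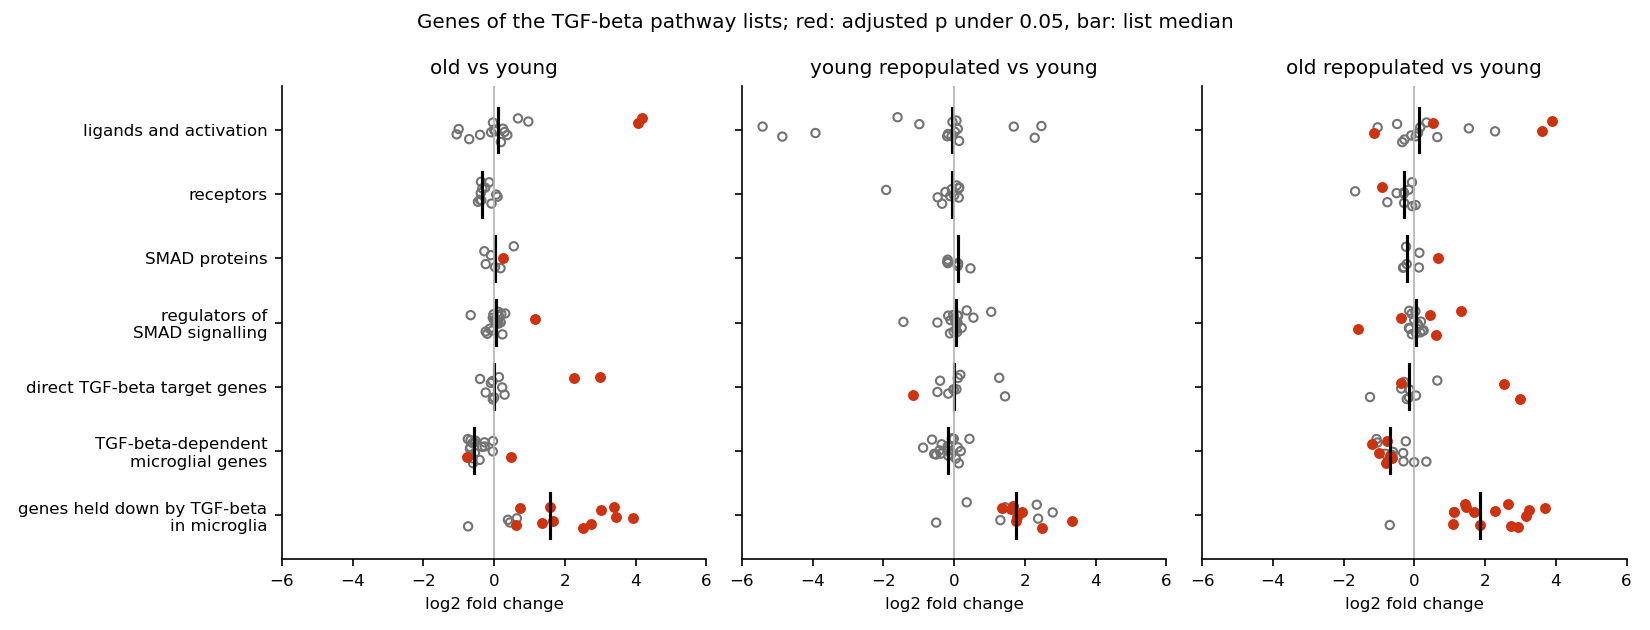
Log2 fold changes of the genes of 7 pathway lists in 3 comparisons, 1 point per gene, red where the adjusted p over all genes was under 0.05, with a black bar at the list median. The genes held down by TGF-beta have medians of 1.59, 1.75 and 1.86 from left to right and the TGF-beta-dependent genes -0.555, -0.16 and -0.68. In the middle panel 2 ligand points (Ltbp1 and Ltbp2) come from genes with no count in any young repopulated library, so their position depends on the prior count.

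Genes known to need TGF-beta signalling in microglia had mostly negative changes with age. Of 18 such genes, 17 were negative in old against young (median -0.555, beside -0.01 for all genes). In that comparison 1 was called lower and 1 higher, beside 0.235% of all genes called lower and 2.6% higher. In old repopulated against young 6 were called lower and 17 were negative (median -0.68), beside 5.92% of all genes called lower. Fcrls, a microglial Fc-receptor-like gene, went from 3439 CPM in young to 2009 CPM in old (-0.78 ± 0.20 SE, adjusted p 0.034) and 1714 CPM in old repopulated libraries (-1.005 ± 0.17, adjusted p 0.000912). P2ry12, the purinergic receptor that marks homeostatic microglia, went from 1755 to 765 CPM in old repopulated libraries (-1.20 ± 0.35, adjusted p 0.023). The other 4 called were Olfml3 (-0.80), Pros1 (-0.79), Csf1r (-0.69) and Mertk (-0.64), with adjusted p from 0.00544 to 0.0203. Without old replicate 3 Fcrls was not called in old against young (-0.61, adjusted p 0.128). It also lost that call without young replicates 4 to 7, young repopulated replicate 2 or old replicate 5 (adjusted p 0.0507 to 0.0836). The 6 falls in old repopulated against young became 13 when old repopulated replicate 1 was left out and 10 when replicate 4 was. Over all genes the lower calls moved too, from 729 to 1849 with 1 library left out, against 1108 with all libraries. Within library numbers 12 to 24, 16 of the 18 were called lower there (median -1.42), beside 41.1% of all genes called in either direction, and within numbers 1 to 11 0 were called and 15 were negative (median -0.31). In young repopulated against young 0 of the 18 were called by edgeR (median -0.16). Of the 9 microglial markers summed above, 8 are in this list, so its changes and the marker sums are not separate measurements.

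Genes known to be held down by TGF-beta in microglia went the other way. Of 15, 11 were called higher in old against young (median 1.59), 8 in young repopulated against young (median 1.75) and 13 in old repopulated against young (median 1.86), beside 2.6%, 0.828% and 9.29% of all genes called higher, and 0 were called lower. This list too was chosen with earlier results of these data known, so the counts describe it and are no test of it. Axl, a receptor for dying cells, rose in each of these comparisons. Young libraries had 222 (lowest), 296 (median) and 321 (highest) CPM of Axl. Every other library lay higher, from 356 to 556 CPM in old, from 498 to 1188 CPM in old repopulated and from 807 to 1120 CPM in young repopulated libraries. Groups that do not overlap were found for 2.21%, 2.24% and 12.1% of all genes in these comparisons with young. Its change was 0.72 ± 0.17 (SE, adjusted p 0.0198) in old, 1.44 ± 0.15 (adjusted p 1.4e-05) in old repopulated and 1.75 ± 0.19 (adjusted p 6.3e-05) in young repopulated libraries, each against young. Clec7a, a pattern receptor, rose by 0.63, 1.09 and 1.34 in the same order, with adjusted p of 0.0176, 3.9e-05 and 0.000112. Apoe, which encodes a lipid carrier, was called in young repopulated against young (1.59 ± 0.35 SE, adjusted p 0.0251). It was not called by edgeR in old repopulated against old, and stood at 0.45 (adjusted p 0.538) in old against young.

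Other genes of that list are shared with other myeloid cells. The antigen presentation genes Cd74 and H2-Aa rose in old libraries by 3.40 ± 0.63 (SE, adjusted p 0.00622) and 3.94 ± 0.78 (adjusted p 0.00803), and Lyz2, a lysozyme gene of macrophages and monocytes, by 1.67 (adjusted p 0.0221). Monocytes and border-associated macrophages express these genes too, and Mrc1 and Ms4a7 of this list are also border-associated markers, and the part of such cells was not tested. H2-Aa lost its call without old replicate 3 (3.26, adjusted p 0.0502). Without old replicate 3 the 11 calls in old against young fell to 3, and without old replicate 5 to 6. The higher calls over all genes moved too, from 93 to 841 with 1 library left out, against 486 with all libraries. In young repopulated against young the 8 calls became 2 without young repopulated replicate 1, 4 without replicates 2 or 3, 5 without young replicates 2, 4, 5, 6 or 7, and 11 without young replicate 3. Such fits gave 23 to 248 higher calls over all genes, against 155 with all libraries. Without the library of each group richest in monocyte and neutrophil markers, 6 of the 15 were called higher in old against young (median 1.39) and 13 in old repopulated against young (median 1.81), where 1 was called lower. Within library numbers 12 to 24, 13 were called higher and 1 lower in old repopulated against young (median 2.11), beside 41.1% of all genes called in either direction. Within numbers 1 to 11, 0 were called, but 14 of the 15 were positive (median 1.63), while the 10 members had a median of 0.04 there. In old repopulated against old 0 of the 15 were called by edgeR (4 at an unadjusted p under 0.05), and 1 by DESeq2 and 1 by voom. There 1941 of all 18720 genes had an unadjusted p under 0.05 by edgeR, while DESeq2 called 1.66% and voom 2.21%. The interaction was negative for 13 of the 15 (median -1.305), with 0 called by edgeR with all libraries and 10 at an unadjusted p under 0.05, beside 2 called by DESeq2 and 4 by voom. Of all 18720 genes, 1542 had an unadjusted p under 0.05 by edgeR, while DESeq2 called 0.235% and voom 0.807%. Within library numbers 12 to 24, 10 of the 15 were called with a negative interaction, beside 8.87% of all genes called in either direction.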

How the data were processed

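RNA of sorted mouse microglia was sequenced as stranded poly(A) libraries, single reads of 50 nt, from 2.4 to 147 ng of RNA, per the labels' protocols. Per the submitters' processing notes, reads were handled with FastQC 0.11.5, STAR, RSEM and limma on build GRCm38; whether counting used strand is not given in the sources used here, so reads of a gene and of an antisense partner cannot be told apart. The authors deposited 1 RSEM table per library with expected counts, estimated by RSEM, of which 87.26% were whole numbers within 1e-06. The authors' deposited TPM values, which divide by effective length, were used for levels between genes, and the deposited effective lengths (a score in bases) for 1 alternative.

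Expected counts were rounded and tested in R 4.3.3 with edgeR 4.0.16 (filterByExpr, TMM, glmQLFit and glmQLFTest, 1 coefficient per group, 23 libraries, 18720 genes, 6 contrasts, Benjamini-Hochberg over all genes, calls under 0.05). Log2 CPM used a prior count of 2. The SE of a change is its size divided by the square root of the test's F. The test was checked on simulated data. Alternatives used DESeq2 1.42.0, limma 3.58.1 voom with sample quality weights, other scalings and filters, an effective-length offset, the run of library numbers as a term or as a subset, and each library left out. Added after the data were seen were the test of a difference between runs of numbers, the fit without the library of each group richest in monocyte and neutrophil markers, and the 45 member pairs (100000 permutations).

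The members and lists were chosen with earlier results of these data known. All members were named. Of each list, called genes were named, at most 4 per direction of a contrast by size of change, as was any gene where its list is described; 1 gene that the rule names is not reported here. For each member the 2 genes of mean CPM of at least 5 with the highest r were listed. Coordinates come from GENCODE M21 where the identifier version was identical (8 of 10 members), and promoters from RefSeq GRCm38.p6. Replicates of a group differed by more than sampling noise: the smallest chi-square per degree of freedom of any pair was 17.76.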

Additional observations from a re-analysis of the deposited data

Results flagged for a closer look

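In old replicate 3, Smad4 stood at 63.89 CPM, while the other 4 old libraries lay between 55.6 and 57.4 CPM. The gap to the next library was a large part of the group's whole range, which is why it is listed. Of the 30 sets of libraries examined in this way (each member in each group of 4 to 10 libraries), this was the 1 listed, and chance alone would list about 1 in 20. The same library had the highest monocyte and neutrophil marker sum of the old group (2105 CPM) and the lowest microglial sum (9691 CPM), and their part in the Smad4 level was not tested.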

How the results depend on the processing

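The number of members called depended on the setting. In old against young (1 with all libraries) it was 0 with upper-quartile factors, without a filter, with the effective-length offset, within library numbers 1 to 11 and without the libraries richest in monocyte and neutrophil markers, 2 with DESeq2 and within numbers 12 to 24, and 4 with voom. Leaving out 1 library gave 0 to 1. With old repopulated against young (1) it was 0 without a filter, with upper-quartile factors or RLE size factors, robust estimation, numbers 1 to 11 and without those marker-rich libraries, 2 with DESeq2 and with the run of numbers as a term, 6 with voom and 7 within numbers 12 to 24. Leaving out 1 library gave 0 to 2. For old repopulated against young repopulated (0) it was 4 with voom and 6 within numbers 12 to 24. The causes were not tested, other than that the fits within a run and without libraries hold fewer samples. No setting run called a member in old repopulated against old, in young repopulated against young or in the interaction.

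Small changes turned sign. In old against young these were Tgfb1 (0.033) and Smad7 (0.015) without the marker-rich libraries, Smad3 (0.012) and Ski (0.097) in numbers 1 to 11, and Nrros with upper-quartile factors (-0.023), with voom (-0.021), in numbers 1 to 11 (-0.115) and without the marker-rich libraries (-0.092). For old repopulated against old they were Tgfb1 in numbers 12 to 24 (0.144), Tgfbr1 with voom (-0.184), the run term (-0.068) and numbers 12 to 24 (-0.449), Tgfbr2 with voom (-0.033) and numbers 12 to 24 (-0.187), Smad2 with the length offset (0.007) and Smad7 in numbers 1 to 11 (0.043). In young repopulated against young they were Ski with voom (0.011), the run term (0.031) and without the marker-rich libraries (0.039), and Itgav with the run term (-0.051) and the length offset (-0.171). For old repopulated against young they were Tgfb1 in numbers 12 to 24 (0.123), Tgfbr1 (0.082), Tgfbr2 (0.045) and Smad7 (0.043) in numbers 1 to 11, and Nrros with upper-quartile factors (-0.031), a mean of at least 5 CPM (-0.002), numbers 1 to 11 (-0.053) and without the marker-rich libraries (-0.043). Between the repopulated groups they were Smad2 with upper-quartile factors (-0.005) and the length offset (-0.016), and Smad4 with upper-quartile factors (-0.010).

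Leaving out 1 library turned the sign in these ranges. In old against young Tgfb1 ran from -0.062 to 0.005, Smad7 from -0.205 to 0.055 and Nrros from -0.077 to 0.138. For old repopulated against old Tgfbr1 ran from -0.112 to 0.119, Tgfbr2 from -0.012 to 0.177, Smad3 from -0.162 to 0.032 and Smad7 from -0.332 to 0.004. In young repopulated against young Ski ran from -0.085 to 0.083, Itgav from -0.019 to 0.273, Nrros from -0.120 to 0.005 and Smad7 from -0.122 to 0.315. Nrros in old repopulated against young ran from -0.028 to 0.086, and Smad4 in old repopulated against young repopulated from -0.067 to 0.084. No paired analysis was possible because the labels give no replicate numbers: those used here follow the order of the samples and tie no library to a litter, batch or day. Over all genes, calls in old against young were 530 with all libraries and 1 to 2691 in the other settings, 52 and 0 to 2187 in old repopulated against old, 251 and 89 to 2574 in young repopulated against young, 2847 and 2 to 7068 in old repopulated against young, and 0 and 0 to 6236 in old repopulated against young repopulated. Depth did not limit the members, whose lowest count was 1788, but the lists hold genes with few counts, such as Tgfb3.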
